A study of Solanum lycopersicum with 8 samples.

Results

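The comparison described here is that of tomato leaves sprayed with neutralized phosphorous acid (NPA) with leaves sprayed with water, 6 h after spraying. It rested on 4 of the 8 arrays of the series, 2 of NPA leaves and 2 of water leaves, chosen by the treatment, time and repeat in their titles, and on all 8404 probe sets that measured plant transcripts. The plants were of the cultivar Summer sweet, with no mutation or transgene named, and were grown at 27 °C with 12 h of light. NPA was made from 1 g of phosphorous acid per litre, brought to pH 6.3 with potassium hydroxide, and both liquids were sprayed until they ran off. For each array the leaf RNA of 5 plants was pooled. The whole experiment was run as 2 repeats, each of which gave 1 array per group, so the spread between arrays is that between pools and repeats and not between plants. The other 4 arrays held NPA and water leaves at 12 h. They added to the estimate of the spread and served for the comparison of times.

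Phosphorous acid salts, known as phosphites, move through the plant but are not used by it as a source of phosphorus. They are used in the field against oomycetes such as Phytophthora, on which they act directly and also through defences of the plant. In tomato leaves, wounding and insect feeding are known to switch on jasmonate synthesis and with it a set of proteins that hamper digestion in insects, among them proteinase inhibitors, arginase and threonine deaminase. Attack by microbes is known to raise pathogenesis-related (PR) proteins such as chitinases and glucanases, whose genes are controlled by salicylic acid, ethylene and jasmonate.

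All values are log2 expression values, and a difference is the NPA value minus the water value, so that a difference of 1 is a 2-fold change. The medians of the arrays were 8.82 and 8.78 in NPA leaves, against 8.77 and 8.79 in water leaves. Probe sets at the 3′ and the 5′ end of actin differed by between -0.13 and 0.12 over the 4 arrays. For the other such control, GAPDH, the 3′ value minus the 5′ value was 0.14 and 0.06 in NPA leaves, against 0.24 and 0.28 in water leaves. Whether this bears on the other results was not tested. The probe sets of 6 photosynthesis genes, such as the chlorophyll-binding proteins of leaves, lay between 13.62 and 14.17 in all 4 arrays, close to the highest value in the table, 14.6. Their differences ran from -0.09 to 0.02. In pooled leaf RNA, fewer cells of a type and less RNA per cell cannot be told apart.

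The early response was wider upward than downward in size, and it differed between the repeats. A difference of at least 1 was found in 315 probe sets in repeat 1 and 194 in repeat 2, and one of -1 or below in 21 in repeat 1 and 124 in repeat 2. In both repeats at once, 155 probe sets (1.84% of those tested) were at least 1 higher in NPA leaves and 11 (0.131%) at least 1 lower. The median difference over all probe sets was -0.01 in either repeat. Among the probe sets with a gene symbol, 753 in number, 41 were at least 1 higher in both repeats and 1 was at least 1 lower.

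The test across all probe sets, limma's moderated test with Benjamini-Hochberg adjustment, called 12 probe sets higher (0.143%) and 2 lower (0.0238%) in NPA leaves. With the repeat as a block, which gives all groups at both times the same shift between repeats, it called 81 higher (0.964%) and 27 lower (0.321%). Of the named probe sets, 3 were called higher without the block, and 13 higher and 1 lower with it. Both NPA values lay above both water values in 1837 probe sets (21.9%) and below both in 2098 (25%), so that groups without overlap were common over the whole array. With any 1 array of 6 h left out, 0 or 1 probe set was called higher and 0 lower, and with either NPA array of 12 h left out 20 were called higher. A fit to the 4 arrays of 6 h called 2 higher, and 0 with the block.

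**Figure D1:**
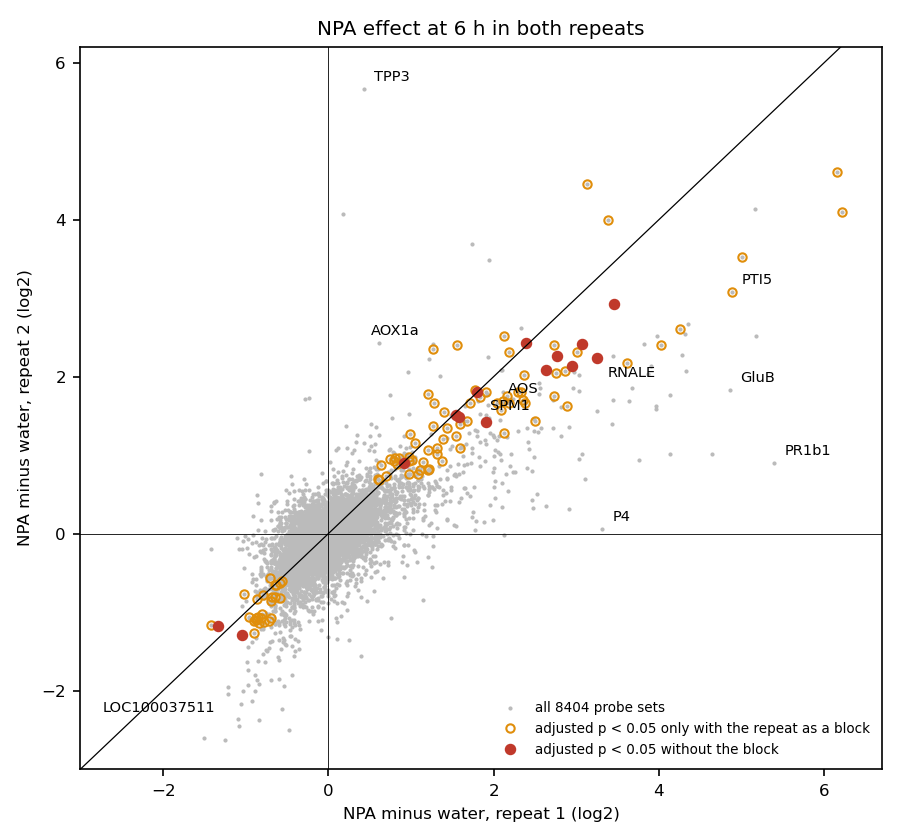
Difference between NPA and water leaves at 6 h in repeat 1 (horizontal axis) and repeat 2 (vertical axis), on the log2 scale, for all 8404 probe sets. Filled points passed the test without the block and open circles only with it, and the diagonal marks equal differences. Most of the large differences lie to the right and below the diagonal, where repeat 1 was the larger, as for PR1b1 (5.39 and 0.90), while TPP3 (0.43 and 5.66) lies far above it.

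RNALE, an extracellular ribonuclease known from phosphate starvation and wounding, read 8.51 and 8.11 in NPA leaves, against 5.26 and 5.87 in water leaves. AOS, allene oxide synthase, makes the first committed step of jasmonate synthesis, and read 6.74 and 6.71 in NPA leaves, against 4.11 and 4.63 in water leaves. SPM1 read 11.92 and 11.95 in NPA leaves, against 10.12 and 10.14 in water leaves. In these 3 genes the NPA arrays stood well above the water arrays with no overlap, and the repeats of SPM1 were the closest. The 3 genes were picked for passing the test, so their lack of overlap is no separate result. They rose in NPA leaves by 2.75 (SE 0.27), 2.36 (SE 0.25) and 1.81 (SE 0.11), with adjusted p = 0.04, 0.04 and 0.0125 by limma (n = 2 arrays per group). Each of the 3 calls was lost when any 1 array of 6 h was left out, where the adjusted p by limma ran from 0.0732 to 0.32, and those of RNALE and AOS also without either water array of 12 h (0.0708).

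**Figure D2:**
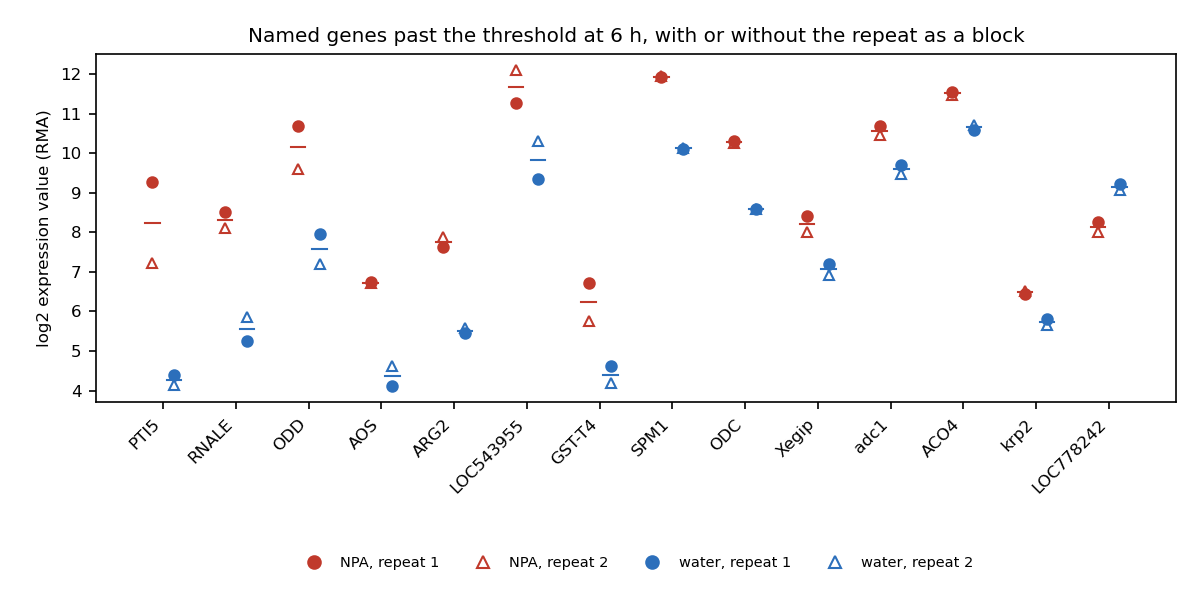
Log2 expression values at 6 h of the 14 named probe sets that passed the test with or without the repeat as a block, with NPA arrays at the left and water arrays at the right of each gene. Circles are repeat 1, triangles repeat 2, and the short lines are group means. NPA and water values overlap in none of the 14, and the repeats differ most in PTI5. The 14 were picked for passing on these values, so their lack of overlap is no separate result.

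The other probe sets that passed without the block, 11 in number, had no gene symbol. The largest rise among them read 8.39 and 8.26 in NPA leaves, against 4.93 and 5.33 in water leaves, a difference of 3.20 (SE 0.23, adjusted p = 0.0125 by limma). Of the 2 that fell, one read 8.31 and 8.52 in NPA leaves, against 9.65 and 9.70 in water leaves, and the other 9.15 and 8.97 in NPA leaves, against 10.20 and 10.26 in water leaves. Neither overlapped, which is no separate result in probe sets picked for passing, and their differences were -1.26 and -1.17, each with adjusted p = 0.04 by limma. Larger differences passed only with the block, and the 3 largest of these stood 5.39, 5.16 and 4.26 higher in NPA leaves. In all, 94 unnamed probe sets passed in either fit, 68 higher and 26 lower. No table used here gives these probe sets a gene, so nothing is said of what they encode.

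Around AOS, the other genes of jasmonate synthesis had smaller differences. AOC, allene oxide cyclase, which acts directly after AOS, read 11.70 and 11.90 in NPA leaves, against 10.76 and 10.90 in water leaves. OPR3, which reduces the cyclic precursor of jasmonate, read 9.80 and 9.81 in NPA leaves, against 9.27 and 9.27 in water leaves. Both genes were higher in both NPA arrays by nearly the same amount in each repeat, 0.97 (SE 0.18) and 0.54 (SE 0.11) on average, and neither passed (adjusted p = 0.122 for each by limma, and 0.0524 and 0.0571 with the block). The opposite order was seen in opr2, a relative of OPR3, with 5.65 and 5.01 in NPA leaves against 6.44 and 6.55 in water leaves (adjusted p = 0.166 by limma). Of the 13 probe sets on the jasmonate list, 1 passed the test, AOS, and 4 had NPA values wholly above and 2 wholly below the water values, against 21.9% and 25% of all probe sets, which is near the background. Their median difference was 0.22, against -0.01 over all probe sets, and 0.04 when dim probe sets were left out.

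A list drawn up for wound-inducible proteins held 7 probe sets for 5 genes. On it, 5 probe sets were at least 1 higher in both repeats, against 1.84% of all probe sets. These 5 include all 3 probe sets of ARG2, and 1 of the 5 passed, with the block, which called 0.964% of all probe sets higher. ARG2, an arginase that breaks down arginine in the insect gut, has 3 probe sets. The one with the largest difference read 7.64 and 7.88 in NPA leaves, against 5.45 and 5.57 in water leaves, a difference of 2.25 (SE 0.33, adjusted p = 0.109 by limma and 0.0278 with the block). The other two stood 1.97 and 1.77 higher in NPA leaves and passed in neither fit. TD2, a threonine deaminase with the same role against insects, read 11.48 and 10.77 in NPA leaves, against 8.91 and 9.43 in water leaves. LAPA1, leucine aminopeptidase A, a late wound-response protein, read 13.31 and 13.09 in NPA leaves, against 11.37 and 11.67 in water leaves. TD2 and LAPA1 had no overlap between the groups and missed the threshold in both fits.

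The median difference of the 7 probe sets was 2.08 in repeat 1 and 1.42 in repeat 2, against -0.01 over all probe sets. The probe sets of ARG1 and LAPA2 differed by between -0.08 and 0.17 in either repeat. Further proteins of this kind stood on a list written after gene symbols had been seen. cathDInh, an inhibitor of the proteinase cathepsin D, read 11.90 and 12.10 in NPA leaves, against 9.57 and 9.48 in water leaves. LOC543954, with PIIF as its older name, read 12.32 and 12.23 in NPA leaves, against 10.21 and 10.43 in water leaves. The differences of these 2 genes, 2.48 and 1.96, missed the threshold (adjusted p = 0.122 for each by limma). Both passed without either water array of 12 h (0.0216 and 0.0296), and cathDInh also in the fit to the 4 arrays of 6 h (0.0462). twi1, a wound-inducible glucosyltransferase, stood 1.63 higher in NPA leaves and missed it too.

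Polyamines are small cations made from ornithine and arginine, and both entry enzymes stood higher in NPA leaves. ODC, ornithine decarboxylase, read 10.32 and 10.25 in NPA leaves, against 8.60 and 8.59 in water leaves, a difference of 1.69 (SE 0.25, adjusted p = 0.109 by limma and 0.0494 with the block). adc1, arginine decarboxylase, has 4 probe sets, and the one that passed with the block read 10.69 and 10.45 in NPA leaves, against 9.71 and 9.48 in water leaves. Its difference was 0.98 (SE 0.23, adjusted p = 0.138 by limma and 0.0494 with the block), and the other probe sets of adc1 differed by 0.56 to 0.99. All 6 probe sets of the list, which measure 3 genes, had NPA values above both water values, against 21.9% of all probe sets. The median difference of the 6 was 1.00 in repeat 1 and 0.89 in repeat 2 and so nearly equal.

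PR proteins had the highest median of the fixed lists, and none of their 14 probe sets passed in either fit. The fixed lists were written with earlier results of these data known, so their counts, medians and ranking are descriptions. GluB, a basic glucanase that cuts fungal walls, read 10.73 and 9.37 in NPA leaves, against 5.87 and 7.54 in water leaves. CHI14, a chitinase, read 8.82 and 7.62 in NPA leaves, against 4.84 and 5.10 in water leaves. PR1b1, of the PR-1 family, read 11.75 and 8.64 in NPA leaves, against 6.36 and 7.74 in water leaves. In each of these the groups did not overlap, and repeat 1 was the higher in NPA leaves and the lower in water leaves. These genes were among the 15 largest rises without overlap from which names were drawn, so their lack of overlap is no separate result. The adjusted p by limma was 0.209, 0.137 and 0.297.

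Of the 14 PR probe sets, 12 had NPA values above both water values, against 21.9% of all probe sets. Over the list, the median difference was 3.64 in repeat 1 and 0.96 in repeat 2. The median over the repeats, 2.44, was 1.41 without the NPA array of repeat 1 and 1.15 over the members left when dim probe sets were left out. P4, another PR-1 protein, differed by 3.31 in repeat 1 and 0.06 in repeat 2. NP24-I, an osmotin-like protein of the PR-5 family, was nearly equal in the repeats, at 2.1 and 2.08. CHI17, a further chitinase, had the opposite order, with 9.40 and 9.33 in NPA leaves against 10.29 and 10.06 in water leaves (adjusted p = 0.153 by limma and 0.0524 with the block). The proteases P69A and P69B, close relatives, differed by 0.24 and 2.78, and probes shared between such relatives could mix their signals. The difference between the repeats could not be tested with 1 array per group in each.

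**Figure D3:**
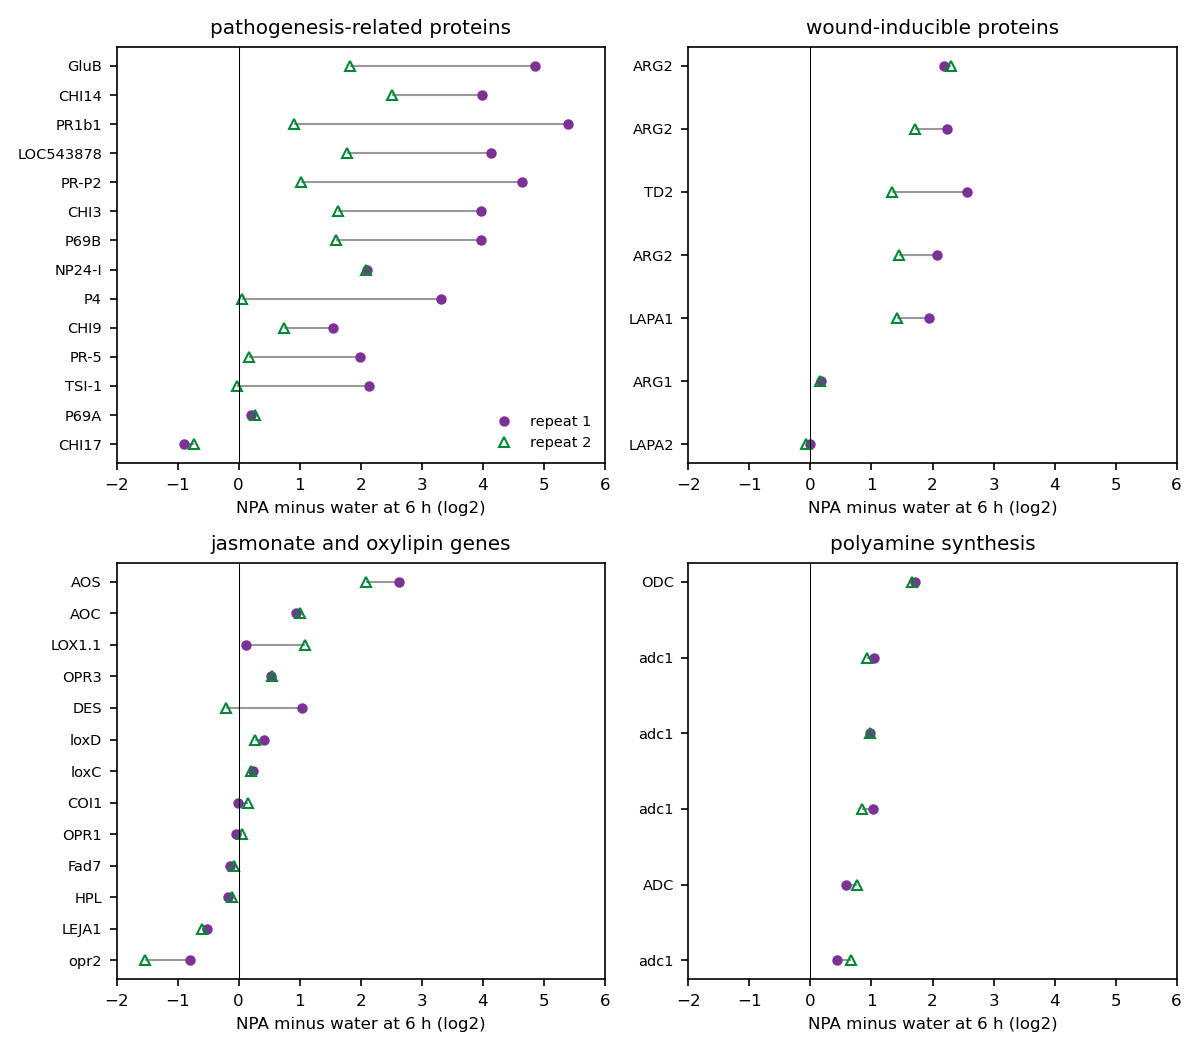
Differences between NPA and water leaves at 6 h, on the log2 scale, for each probe set of 4 gene lists, with repeat 1 as circles and repeat 2 as triangles joined by a line. The lines are long for most PR proteins, where the list medians were 3.64 in repeat 1 and 0.96 in repeat 2, and short for polyamine genes, where they were 1.00 and 0.89.

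Transcription factors of the ERF family bind ethylene-responsive and PR gene promoters. PTI5, found as a partner of the tomato resistance kinase Pto, read 9.27 and 7.22 in NPA leaves, against 4.39 and 4.14 in water leaves, the largest difference among named probe sets at 3.98 (SE 0.92, adjusted p = 0.137 by limma and 0.0494 with the block). PTI6 and PTI4, found in the same way, read 10.86 and 9.90, and 11.38 and 11.14, in NPA leaves, against 8.82 and 8.71, and 10.36 and 10.53, in water leaves. All 3 had no overlap between groups, and PTI6 and PTI4 missed the threshold in both fits (adjusted p = 0.122 and 0.118 by limma). PTI5 was among the 15 largest rises without overlap from which names were drawn, so its lack of overlap is no separate result. Of the 14 ERF probe sets, 1 passed with the block, against 0.964% of all probe sets called higher. On this list 7 had NPA values above both water values, against 21.9% of all probe sets. The median difference was 0.23. LOC606712, with TERF1 as an older name, stood 1.02 higher in NPA leaves and missed the threshold too (adjusted p = 0.291 by limma). The other members had mean differences between -0.37, in the cold-response factor CBF1, and 0.47, in ERF3.

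NAC1, a NAC-domain factor, read 9.42 and 8.06 in NPA leaves, against 5.74 and 6.21 in water leaves, a difference of 2.77 that missed the threshold (adjusted p = 0.146 by limma). ER24, a transcriptional coactivator that responds to ethylene stood 2.53 higher in NPA leaves (adjusted p = 0.19 by limma). The fixed list of WRKY factors, regulators of defence genes, held 4 probe sets with a median difference of 0.44, 0.71 in repeat 1 and 0.21 in repeat 2, and none passed. WRKYIId, on a list written after gene symbols had been seen, differed by 0.19 in repeat 1 and 0.39 in repeat 2. Of 12 probe sets for salicylic acid and MAP kinase signalling none passed, and 9 had NPA values above both water values, against 21.9% of all probe sets. MPK3, a MAP kinase of the first defence signalling, read 9.34 and 8.97 in NPA leaves, against 8.26 and 8.41 in water leaves on 1 of its 2 probe sets (difference 0.82, adjusted p = 0.122 by limma).

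Ethylene is made by ACC synthase and then ACC oxidase. ACO4, an ACC oxidase, read 11.56 and 11.48 in NPA leaves, against 10.59 and 10.72 in water leaves, a difference of 0.87 (SE 0.11, adjusted p = 0.0757 by limma and 0.0332 with the block). ACS1A, an ACC synthase, differed by 1.39 in repeat 1 and 0.49 in repeat 2 and did not pass. The probe sets of ACO6, on the same list, differed by -0.105 to 0.09. The 20 probe sets of the list had a median difference of 0.20. With the block 1 passed, against 0.964% of all probe sets called higher. Of the 20, 8 had NPA values above both water values and 4 below both, against 21.9% and 25% of all probe sets.

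Receptor-like proteins of resistance were a list of 2 probe sets, written after gene symbols had been seen. Eix1, a receptor-like protein that binds a fungal xylanase, read 8.53 and 7.57 in NPA leaves, against 4.25 and 5.29 in water leaves. Ve2, from the locus for resistance to Verticillium, read 7.46 and 7.20 in NPA leaves, against 6.25 and 6.71 in water leaves. Neither group pair overlapped. Eix1 was drawn from the 15 largest rises without overlap, and Ve2 was picked with its values known. The lack of overlap in these genes is therefore no separate result. Their differences of 3.28 (SE 0.68) and 0.85 (SE 0.21) missed the threshold (adjusted p = 0.122 and 0.149 by limma). THT1-3, a transferase that joins tyramine to phenolic acids for wall strengthening, read 9.04 and 7.27 in NPA leaves, against 5.40 and 5.58 in water leaves, and also missed it (adjusted p = 0.184 by limma). This gene was picked with its values known. Its list of 6 probe sets had a median difference of 1.235. On that list, THT7-8 differed by 1.08 and 0.61 in repeats 1 and 2, and THT7-1 by -0.02 and -0.01.

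Among enzymes of stress metabolism, GST-T4, a glutathione S-transferase of detoxification, read 6.71 and 5.76 in NPA leaves, against 4.62 and 4.18 in water leaves (difference 1.84, SE 0.60, adjusted p = 0.22 by limma and 0.0443 with the block). It had the highest difference of the 11 probe sets on the redox and glutathione list, whose median was 0.20. The others differed by -0.05 to 0.425. Of the 11, 3 had NPA values above both water values and 0 below both, against 21.9% and 25% of all probe sets. LOC543955, without annotation here, read 11.26 and 12.11 in NPA leaves, against 9.35 and 10.30 in water leaves on the probe set that passed with the block (difference 1.86, SE 0.74, adjusted p = 0.299 by limma and 0.0452 with the block), while its other probe set differed by -0.01. Repeat 2 was the higher in NPA leaves and in water leaves. The groups did not overlap, which is no separate result in a probe set picked for passing. ODD read 10.69 and 9.61 in NPA leaves, against 7.96 and 7.21 in water leaves (difference 2.57, SE 0.65, adjusted p = 0.15 by limma and 0.0222 with the block). In ODD and GST-T4 repeat 1 was the higher in NPA leaves and in water leaves. AOX1a, the alternative oxidase of mitochondria, differed by 1.27 in repeat 1 and 2.42 in repeat 2, and FDH, formate dehydrogenase, by 1.64 and 1.43. Both were picked with their values known, from a list whose 9 probe sets ran from -0.125 to 2.525, and passed in neither fit. HT2, a hexose transporter, and sus3, a sucrose synthase, stood 2.17 and 1.36 higher in NPA leaves and missed the threshold as well (adjusted p = 0.267 and 0.323 by limma). They had the highest differences of the 22 probe sets on the sugar and starch list, whose median was -0.01. Of the 22, 9 were higher and 8 lower in both repeats, against 33.4% and 36.1% of all probe sets.

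RNALE was the 1 member of the phosphate starvation list that passed the test, which called 0.143% of all probe sets higher. Of the 6 probe sets on the list, 3 had NPA values above both water values and 1 below both, against 21.9% and 25% of all probe sets. PT1, a phosphate transporter, read 11.47 and 11.64 in NPA leaves, against 10.61 and 11.04 in water leaves, and TPSI1, a transcript known to rise when phosphate is short, read 8.0 and 8.21 in NPA leaves, against 8.75 and 8.57 in water leaves. Neither passed (adjusted p = 0.301 and 0.379 by limma), and their directions were opposite. The median difference of the list was 0.14.

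Differences below 0 were smaller in size. LOC778242, with no role annotated in the tables used here, was the 1 named fall that passed with the block, and read 8.26 and 8.01 in NPA leaves, against 9.22 and 9.07 in water leaves (difference -1.01, SE 0.16, adjusted p = 0.114 by limma and 0.0494 with the block). LOC100037511, likewise without annotation, had the lowest difference of the named probe sets, with 5.0 and 4.42 in NPA leaves against 6.22 and 6.46 in water leaves, and did not pass (difference -1.63, adjusted p = 0.114 by limma and 0.0538 with the block). It was the 1 named probe set at least 1 lower in both repeats.

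Carotenoid synthesis makes the protective pigments of chloroplasts and the precursors of abscisic acid. PSY2, phytoene synthase of the first step, read 9.42 and 9.37 in NPA leaves, against 10.01 and 9.91 in water leaves. PDS, phytoene desaturase of the next step, read 9.69 and 9.70 in NPA leaves, against 10.21 and 10.34 in water leaves. AO1, an aldehyde oxidase, read 9.69 and 9.88 in NPA leaves, against 10.32 and 10.41 in water leaves. The NPA values of these 3 genes lay below both water values, by 0.57, 0.58 and 0.58 on average, and none passed (adjusted p = 0.142, 0.122 and 0.174 by limma). PDS and AO1 were among the 15 largest falls without overlap from which names were drawn, so their lack of overlap is no separate result. Of the 13 probe sets on the list 8 were lower in both repeats, against 36.1% of all probe sets, and 1 was higher in both, against 33.4%. Their median difference was -0.27.

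Single enzymes, picked for values below those of water leaves, were AGPL3, chMDH and gMDH. AGPL3, of starch synthesis, read 10.93 and 10.96 in NPA leaves, against 11.37 and 11.53 in water leaves. chMDH and gMDH, malate dehydrogenases of the chloroplast and of the glyoxysome, differed by -0.49 and -0.47. The list of malate and phosphoenolpyruvate enzymes that holds them had 10 probe sets and a median of -0.31. Of the 10, 4 were higher and 6 lower in both repeats, against 33.4% and 36.1% of all probe sets. AUREA, phytochromobilin synthase of phytochrome, differed by -0.59, and MFP1, a filament-like protein, by -0.89. None of these passed (adjusted p = 0.122 to 0.184 by limma). The cell wall list, of 23 probe sets, had a median difference of -0.21, with 13 lower in both repeats, against 36.1% of all probe sets. On this list 4 lay above and 3 below both water values, against 21.9% and 25% of all probe sets. The median of the list was 0 without the NPA array of repeat 1. Its 1 member that passed with the block was higher: Xegip, an inhibitor of a xyloglucan-cutting enzyme of fungi, with 8.41 and 8.0 in NPA leaves against 7.21 and 6.93 in water leaves (difference 1.14, adjusted p = 0.157 by limma and 0.0278 with the block). krp2, an inhibitor of cyclin-dependent kinases, was the 1 cell-cycle probe set of 14 that passed with the block, at 0.76 (SE 0.13, adjusted p = 0.114 by limma and 0.0494 with the block), while the median of that list was -0.16. The fit with the block called 0.964% of all probe sets higher.

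**Figure D4:**
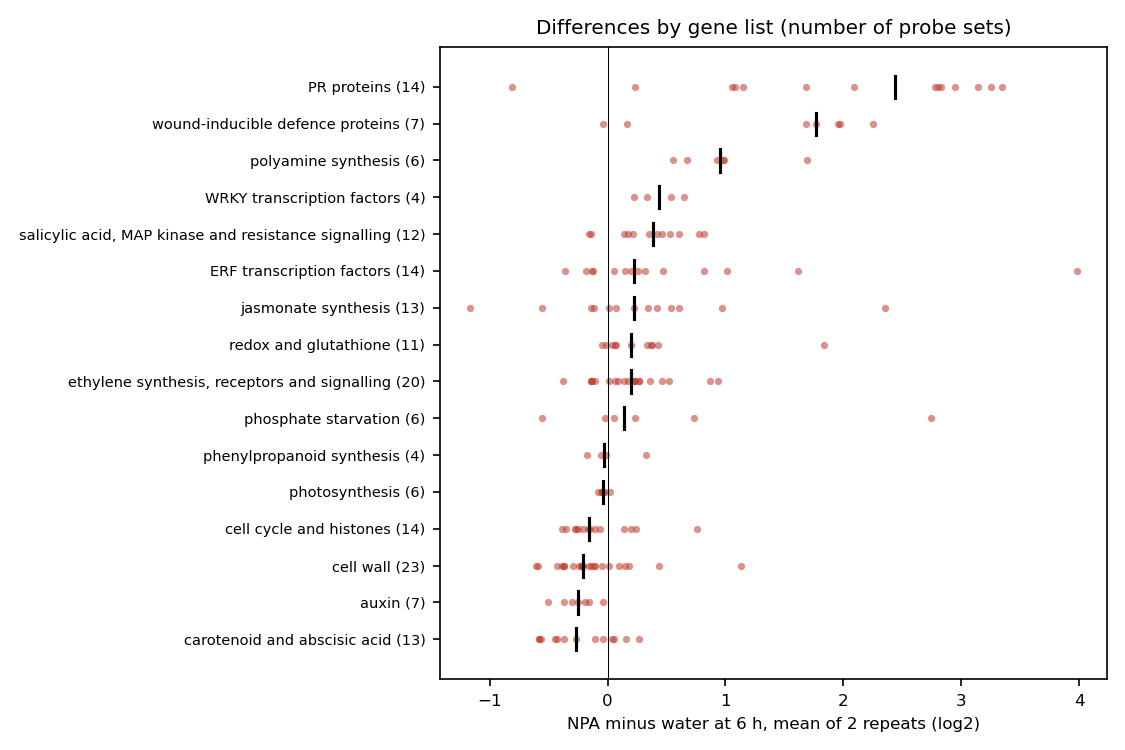
Mean difference between NPA and water leaves at 6 h, on the log2 scale, for each probe set (points) of the fixed gene lists with at least 3 probe sets, ordered by the list median (black bars). PR proteins, wound-inducible proteins and polyamine genes lie highest, with medians of 2.44, 1.77 and 0.95, and carotenoid and abscisic acid genes lowest, at -0.27. The lists were written with earlier results of these data known, so their order is a description.

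For TPP3 the repeats were far apart. It read 4.10 and 9.47 in NPA leaves, against 3.67 and 3.81 in water leaves, so that 1 array set its mean difference of 3.05 (SE 2.35, adjusted p = 0.618 by limma). MTS1, a monoterpene synthase of trichomes, differed by 0.96 in repeat 1 and 2.06 in repeat 2, and HSP17.4, a small heat shock protein, by 1.35 and 2.01. SSTLE1, a sesquiterpene synthase of trichomes, differed by -0.26 and 0.09. The other marker lists held 1 probe set each. FRO1, an iron reductase of roots, read 8.22 and 7.99 in NPA leaves, against 7.91 and 7.69 in water leaves, and TDR6, a flower and fruit factor, 7.01 and 6.16 in NPA leaves, against 7.48 and 7.47 in water leaves. None of these markers passed, and their part in the other results was not tested.

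Effects at 12 h are given beside those at 6 h. Genes picked for passing at 6 h can be smaller at 12 h through that choice alone, so their order in time is a description. SPM1 differed by 1.81 at 6 h and -0.16 at 12 h, AOS by 2.36 and 0.47, ODC by 1.69 and 0.01, and LOC778242 by -1.01 and 0.06. RNALE differed by 2.75 at 6 h and 3.61 at 12 h, and PR1b1 by 3.15 and 4.42. The list medians at 6 h and 12 h were 2.44 and 2.53 for PR proteins, 1.77 and 1.61 for wound-inducible proteins, 0.95 and 0.41 for polyamine genes and 0.14 and 0.67 for phosphate starvation genes. The test of the difference between the 6 h and 12 h effects called no probe set with or without the block by limma (1123 and 1864 had an unadjusted p under 0.05, against 420 by chance). For SPM1, the closest of the named genes that passed at 6 h, the difference of effects was 1.97 (adjusted p = 0.0761 by limma), and it passed under some other settings. Hour of day and time after spraying cannot be told apart here.

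**Figure D5:**
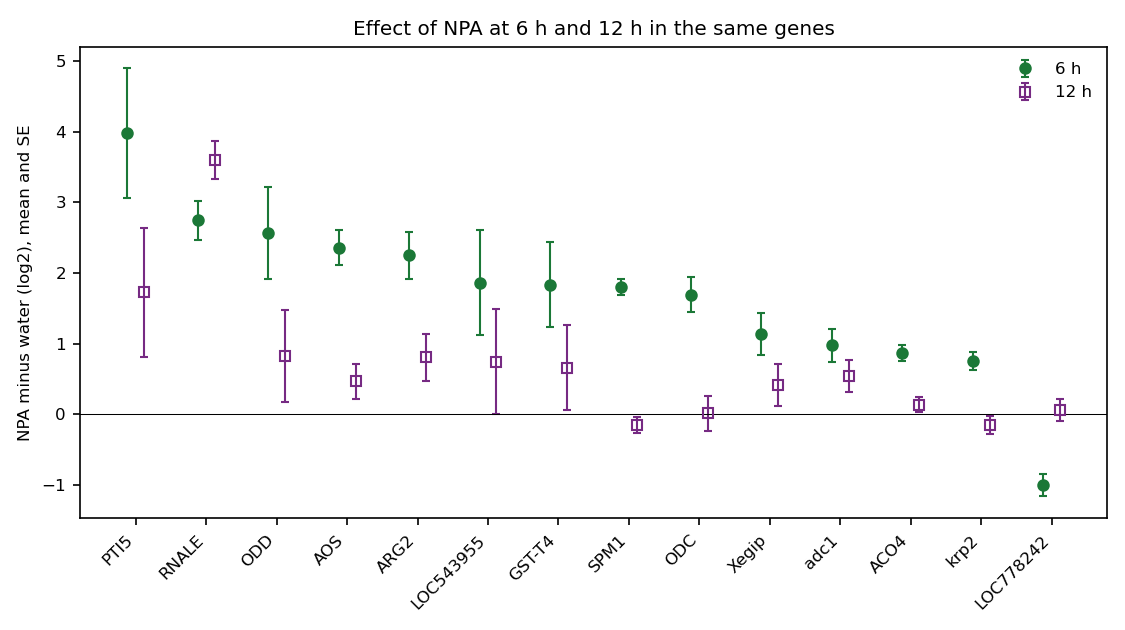
Difference between NPA and water leaves at 6 h (filled circles) and 12 h (open squares) on the log2 scale, with SE, for the 14 named probe sets that passed at 6 h with or without the repeat as a block. The probe sets were picked for passing at 6 h, so smaller values at 12 h are partly set by that choice. RNALE lies higher at 12 h, and SPM1 lies at 1.81 at 6 h and -0.16 at 12 h.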

How the data were processed

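The deposited table holds log2 expression values of the Affymetrix Tomato Genome Array, made by the authors with RMA per the submitters' processing notes. No source used here states its version or settings. The log2 unit was inferred from RMA and from a range of 2.68 to 14.6. Of 8488 probe sets, 84 controls were left out. Platform annotation paired 753 probe sets with 1 gene symbol, for 688 genes, and 7651 with none. Groups were taken from titles. With limma 3.58.1 and R 4.3.3, the means of the 4 groups were estimated from all 8 arrays (4 residual degrees of freedom), with Benjamini-Hochberg adjusted p under 0.05. The design text says that the whole experiment was repeated, and same-numbered NPA and water arrays of 6 h deviated together (r = 0.471 across probe sets). Over all pairs of groups r ran from 0.316 to 0.596. The repeat as a block was therefore the alternative fit, with the same shift between repeats for both times. Named genes were drawn from those that passed in either fit and from the 15 largest differences of each direction without overlap. Further ones were up to 6 per list and 6 unnamed probe sets per direction. Not all that met this rule are described, and among those left out were pip1 (difference 3.51), LOC543602 (3.02) and LOC543681 (-0.945). Outside this rule, and chosen after their values were seen, were AGPL3, AOX1a, cathDInh, chMDH, ER24, FDH, gMDH, HT2, LAPA2, 1 unnamed probe set, LOC543954, another LOC543955 probe set, NP24-I, P4, P69A, sus3, THT1-3, twi1 and Ve2. Members and lists were chosen with earlier results of these data known, and descriptions were not in the reference tables, so lists were matched by symbol. Scripts were checked on simulated data. No coordinates or sequences are given.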

Additional observations from a re-analysis of the deposited data

How the results depend on the processing

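The number of probe sets called higher at 6 h, 12 without the block, was 81 with the replicate block, 2 with only the 6 h arrays, 0 with only those and the block, 3 where dim probe sets below the median level were left out, 7 with an intensity trend, and 0 to 20 with single arrays left out. The number called lower, 2, was 27 with the block, 0 with only the 6 h arrays in both fits, 4 at an adjusted p under 0.1, and 0 to 2 with single arrays left out. Among genes on the fixed lists, 2 were called higher, against 10 with the block, 0 with only the 6 h arrays with and without the block, 0 above the median level, 1 with the trend, and 0 to 3 with single arrays left out. Renewed quantile normalization, centring, robust variance and array weights kept the first 2 counts within 1.5 times, and 12, 13, 13 and 14 of the 14 calls were shared. AOS lost its call with the trend (adjusted p = 0.0751 by limma). Of the 155 probe sets at least 1 higher in both repeats 45 lay above the median level, and the 11 at least 1 lower became 21 after quantile normalization, 17 after centring and 3 above the median level. The count that differed between 6 h and 12 h, 0, was 2 after quantile normalization, 1 above the median level, 1 with the trend and 1 at an adjusted p under 0.1, and 0 to 1 with single arrays left out. SPM1 was the probe set that passed above the median level and with the trend. With single arrays left out, differences near 0 changed sign in 5 probe sets, which ranged from -0.25 to 0.08 in SSTLE1, -0.87 to 0.14 in CBF1, -0.045 to 0.38 in ARG1, -0.11 to 0.09 in the other LOC543955 probe set and -0.1 to 0.02 in LAPA2. With single arrays of 6 h left out, list medians ran from 1.41 to 3.22 for PR proteins, -0.01 to 0.19 for jasmonate, -0.41 to -0.09 for carotenoid, -0.25 to 0 for cell wall, 0.04 to 0.27 for phosphate starvation and 0.07 to 0.27 for ethylene genes, and crossed 0 for cell cycle genes. Without either water array of 12 h, ARG2 and ODC also passed (adjusted p = 0.037 and 0.0356 by limma), and without either NPA array of 12 h FDH and NP24-I did (0.0306 and 0.0395). With 2 arrays per group, the number of arrays limits all these results, and no detection calls were used.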
